A study of Rattus norvegicus with 20 samples.

Results

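Modulators of Wnt signalling were followed in the femur of 4 rat strains through 10 genes, Sfrp1, Sfrp2, Sfrp4, Frzb, Dkk3, Sost, Lrp5, Lrp6, Ctnnb1 and Ccn5. All but Ctnnb1, whose product beta-catenin acts inside the cell, encode secreted or membrane-bound proteins. A probe set, the group of short probes that reports 1 transcript on the array, was a member if its only gene symbol was 1 of these 10 (Ccn5 also under its older name Wisp2). This gave 23 of the 31042 probe sets that were not controls, for 10 of the 14217 genes named on the array. Of the 23, 14 probe sets for 9 genes had a mean signal above a low-signal limit of 169.7 and were tested. The other 9, which included both probe sets for Sost, were described only.

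RNA was measured on 20 Affymetrix rat expression arrays, 5 per strain, each from the femur of a rat aged 4 weeks. NP and P are inbred strains derived from lines bred for not preferring and for preferring alcohol. NP.P and P.NP are congenic strains, made by repeated backcrossing, with the recipient named first: NP.P rats carry the P alleles of a chromosome 4 quantitative trait locus on the NP background, and P.NP rats carry the NP alleles of that locus on the P background. The study asked which genes in and around that locus go with bone mass and strength. No rat had a transgene or a treatment in the sources used here. The congenic strains differ from their recipient strain over a segment with many genes, not over 1 gene. The sample labels speak of proximal femora and the methods of femurs, and no removal of marrow was described. The paper describes its rats as male, the sample labels give no sex, and the 5 samples of a strain were taken as 5 animals from the n of the methods.

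Wnt proteins are secreted ligands that bind a Frizzled receptor together with the co-receptor Lrp5 or Lrp6, after which beta-catenin escapes degradation and joins Tcf and Lef factors in the nucleus. Secreted frizzled-related proteins bind the ligands themselves, whereas some Dickkopf proteins and sclerostin act at the co-receptors. In bone, Wnt signalling favours osteoblast formation, loss of Lrp5 function lowers bone mass, and sclerostin from osteocytes restrains bone formation.

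Signals are MAS5 values, linear intensities deposited by the authors. Differences are given as log2 differences from a single limma fit over the 20 arrays, and a probe set was called where its p, adjusted by Benjamini-Hochberg over all 18625 probe sets tested, lay within a false discovery rate of 10%. Besides an F test over the 4 strains, 6 contrasts were read: P minus NP, NP.P minus NP, P.NP minus P, the background (P and P.NP minus NP and NP.P), the segment (P and NP.P, which carry the P segment, minus NP and P.NP), and the interaction of segment with background. These contrasts share arrays and do not count as separate evidence. The number of arrays limits the precision. Array medians lay between 292 and 322, and the log2 signals of arrays of a strain correlated at 0.952 to 0.980. In 1 array, P replicate 2, the cartilage genes stood far below all others, and the differences of Frzb, Ctnnb1 and Ccn5, which it touches, are also given without it. All 8 osteoblast markers with a named probe set, among them Bglap, the osteocalcin gene, were above the low-signal limit. In whole-bone RNA, fewer cells of a type and less RNA per cell cannot be told apart.

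Expression of most of these modulators was not called different between the strains. In the F test, 2 of 14 probe sets passed, or 14.3%, beside 18.2% of all probe sets tested. These were Sfrp4, which was higher in strains on the P background, and Ccn5, which was lowest in P rats. P minus NP gave 1 call, with Ccn5 lower, beside 5.36% of all probe sets called in either direction and 2.94% called lower. P.NP minus P gave 1 call, again Ccn5 and here higher, where 0.231% of all probe sets were called and 0.113% higher. The background contrast gave 1 call, Sfrp4 with higher signals, beside 22.5% of all probe sets called and 11.1% called higher. The segment contrast gave 1 call, Ccn5 with lower signals, beside 0.886% called and 0.408% called lower. NP.P minus NP gave 0 calls with limma (2.3% of all probe sets), with 2 of 14 at an unadjusted p under 0.05. The interaction gave 0 calls with limma (0.317% of all), with 1 of 14 at an unadjusted p under 0.05. The share of all probe sets at an unadjusted p under 0.05 was not worked out, so these counts are not read as an excess. The median log2 difference over the 14 probe sets was 0.086 for P minus NP, beside 0.0037 over all probe sets, and 0.00097 for the background, beside 0.017.

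**Figure D1:**
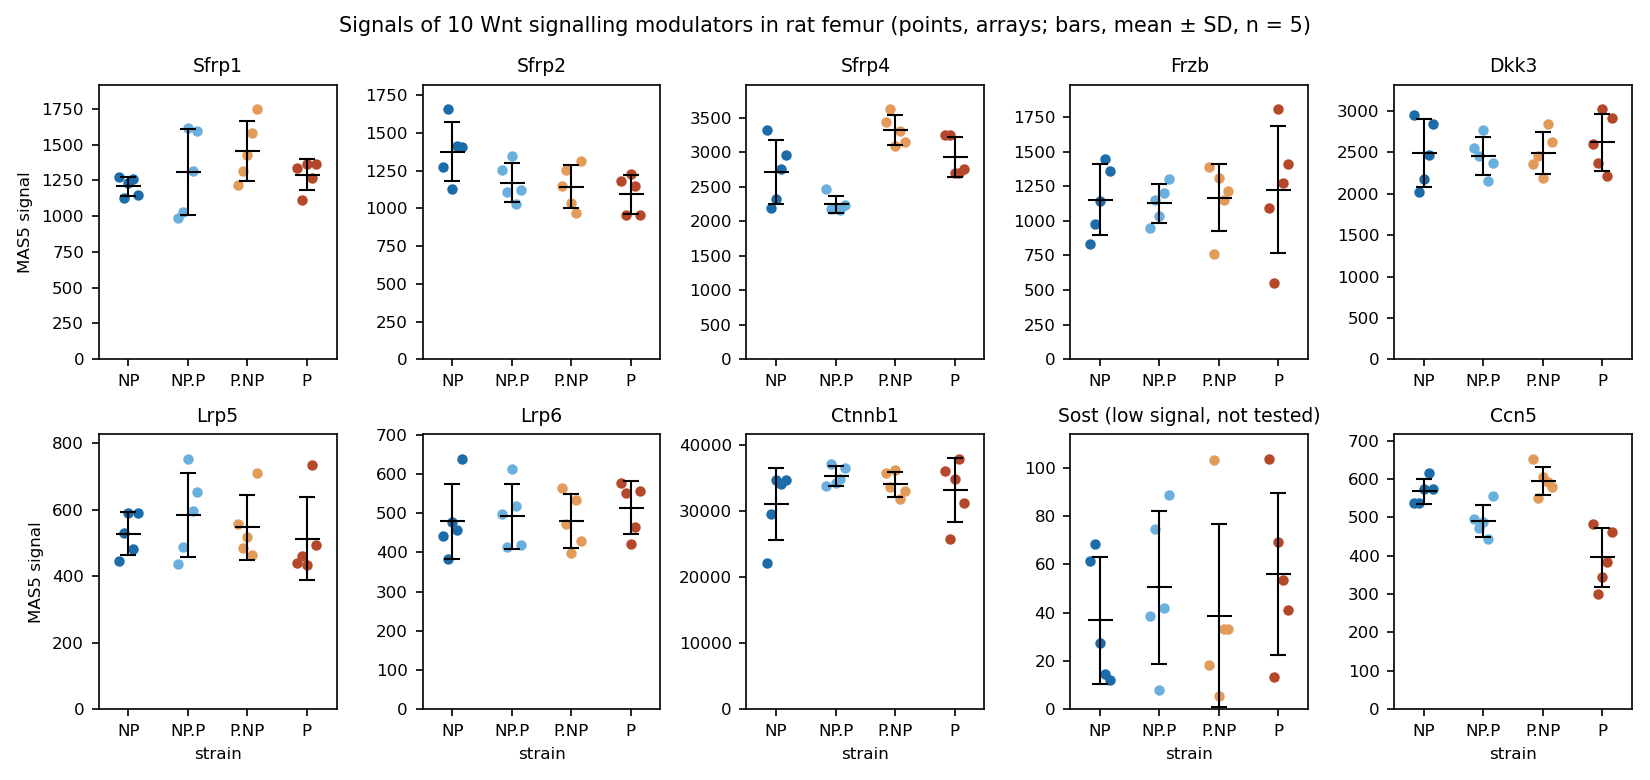
MAS5 signal (linear axis from 0) of each of the 10 genes at its brightest probe set in femur of the 4 strains. Points are arrays, and bars are the mean with the SD of 5 arrays; the P points for Ccn5 (301 to 484) lie below all NP and P.NP points, and the NP.P points for Sfrp4 (2157 to 2460.5) lie below all P.NP and P points.

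The plot of signals by strain shows how little most of these genes moved: for Dkk3 and Lrp6 the strain means differ by less than the SD of any strain, and the arrays of all strains overlap. The plot of differences with their intervals gives the same comparison on the log2 scale. There, the intervals of Sfrp1, Dkk3, Lrp6 and Ctnnb1 include 0 in all 5 contrasts shown.

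**Figure D2:**
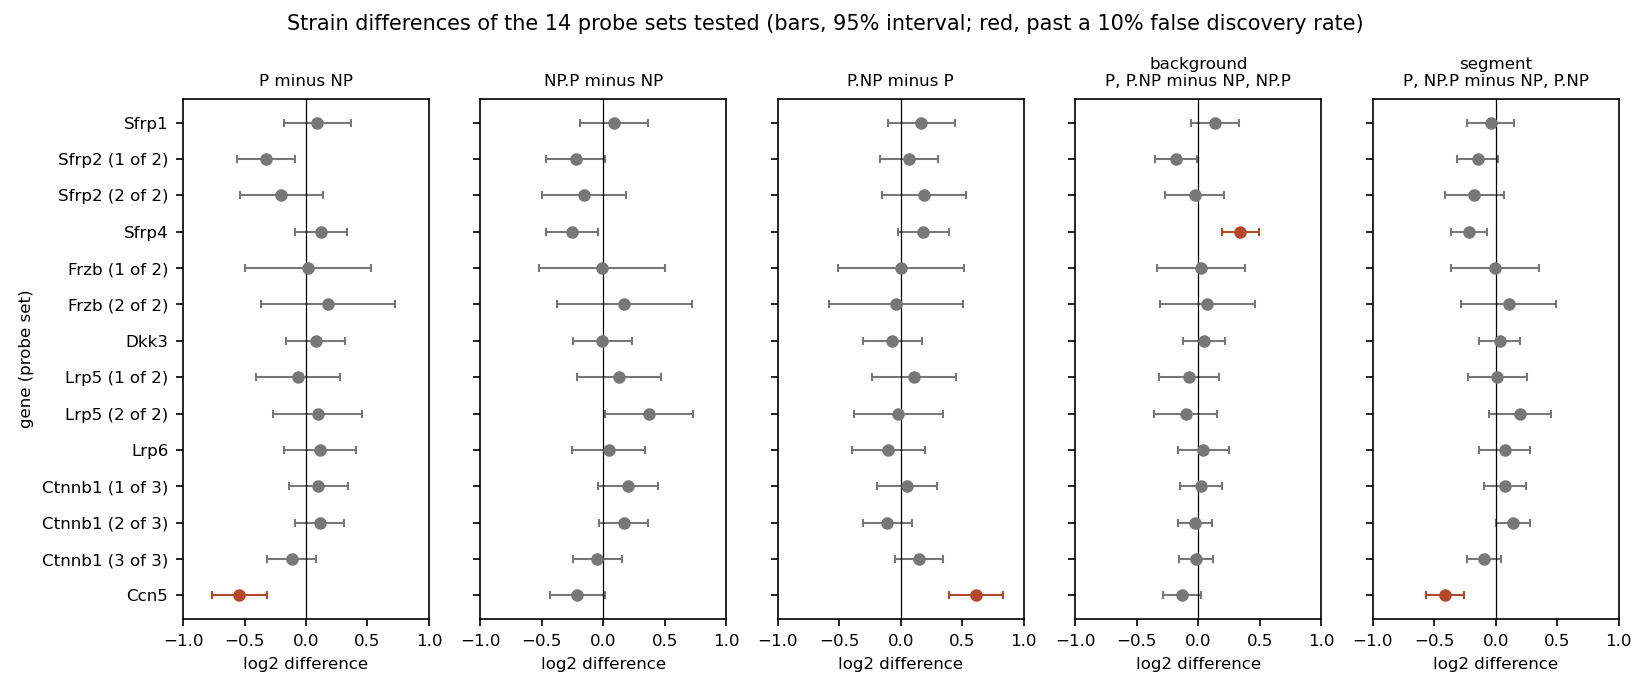
Log2 difference of each of the 14 tested probe sets in 5 contrasts, with the 95% interval from the limma fit; red points passed the 10% false discovery rate. The red points are Ccn5 in P minus NP (-0.54), P.NP minus P (0.61) and the segment (-0.41), and Sfrp4 in the background (0.34); Frzb has the widest intervals.

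Among the secreted frizzled-related proteins, Sfrp4, which is made by osteoblast-lineage and connective tissue cells and binds Wnt ligands, was the member that moved with the background. Its signal (probe set 1368394_at) was 3322, 2192, 2319, 2756 and 2963 in the 5 NP arrays and 2460.5, 2181, 2198, 2157 and 2228 in the NP.P arrays. It was 3431, 3618, 3084, 3306 and 3149 in the P.NP arrays and 3252, 3250.1, 2695, 2700.3 and 2749 in the P arrays. All NP.P arrays lay below all P.NP and all P arrays, while the NP arrays overlapped those of each other strain. Strain means were 2710.1 ± 464 (SD, n = 5) for NP, 2245 ± 123 for NP.P, 3318 ± 216 for P.NP and 2929 ± 294 for P. In the order P.NP, P, NP, NP.P, each strain overlapped its neighbour. The 2 strains on the P background were higher by 0.34 on the log2 scale (SE 0.071, 95% interval 0.19 to 0.49, limma adjusted p = 0.00246), a 1.27-fold difference. That difference ranked 883 of 18625 by p, so that many other probe sets separated the backgrounds more sharply. P minus NP was 0.12 (95% interval -0.086 to 0.33, adjusted p = 0.585) and NP.P minus NP was -0.26 (95% interval -0.47 to -0.046, adjusted p = 0.252), and neither was called. P.NP minus P was 0.18 (95% interval -0.027 to 0.39, adjusted p = 0.719), also not called. The segment difference was -0.22 (95% interval -0.37 to -0.071). Its interval left out 0, but it was not called (adjusted p = 0.208). The second Sfrp4 probe set, 1388021_at, had signals from 8.8 to 157, too low to test.

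Some genes in a list of periosteum, tendon and fibroblast markers moved with the same contrast as Sfrp4. Of 13 markers, 12 were above the low-signal limit (Clec3b was low, and none was at 0). Of these, 5 were higher on the P background and 0 lower, beside 11.1% of all probe sets higher and 11.3% lower. The 5 called were Postn, the periostin gene (0.45, adjusted p = 2.40e-05), Pi16 (0.95, adjusted p = 0.00252), Mfap5 (0.52, adjusted p = 0.00704), and the small proteoglycan genes Aspn (0.29, adjusted p = 0.00833) and Ogn (0.21, adjusted p = 0.0209). The rest, among them the tendon genes Tnmd and Scx, were not called. Their differences ran from 0.012 (Dcn) to 0.25 (Dpt), with limma adjusted p from 0.192 (Lum) upward. The summed signal of the list ran from 115461 to 149670.3 for NP, 107214 to 126269 for NP.P, 133461 to 145045 for P.NP and 119690.4 to 143587 for P arrays. With the mean centred log2 signal of these 12 genes (the periosteum score) as a covariate, a fit chosen after seeing the data, the Sfrp4 difference was 0.40 (SE 0.094, adjusted p = 0.0107). With a cartilage score as a covariate it was 0.33 (SE 0.072, adjusted p = 0.00351). In the same contrast, 2 of 4 osteocyte genes (Phex, 0.42, and Pdpn, 0.18) and 1 of 8 osteoblast genes (Alpl, 0.32) were higher, and 0 were lower. Erythroid genes also moved with the background, with 8 of 9 lower in strains on the P background. Their summed signal ran from 222142 to 274534 for NP, 272234 to 303691 for NP.P, 221558 to 248299 for P.NP and 223341 to 264201 for P arrays. Of 5 B lymphoid genes, 3 were higher, with summed signals of 19587 to 25727 for NP, 16581 to 22553 for NP.P, 20895 to 25770.0 for P.NP and 22725 to 28028 for P arrays. The part of these marrow genes, and of the osteocyte and osteoblast genes, in the Sfrp4 difference was not tested.

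**Figure D3:**
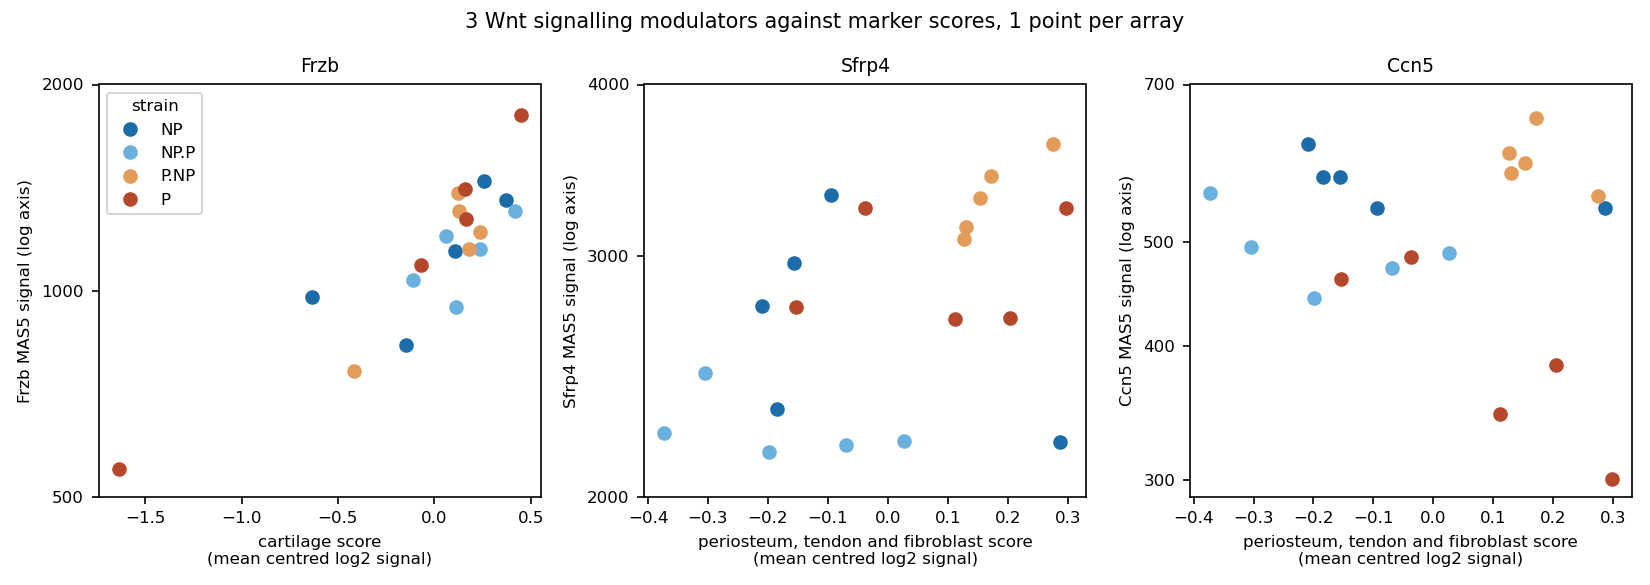
Signal (log axis) against a marker score (mean centred log2 signal of the marker genes) for Frzb and the cartilage score, and for Sfrp4 and Ccn5 and the periosteum, tendon and fibroblast score, with 1 point per array coloured by strain. P replicate 2 stands alone at a cartilage score of -1.64 and a Frzb signal of 549; the NP.P arrays have lower Sfrp4 signals than all P.NP and P arrays, and within P rats the 3 highest periosteum scores go with the 3 lowest Ccn5 signals.

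Sfrp2, a related secreted Wnt-binding protein, was highest in NP rats, but was not called. Its brighter probe set (1390119_at) gave 1276, 1655, 1125, 1413 and 1405 for NP arrays, 1253, 1106, 1349, 1027 and 1120.0 for NP.P, 1149, 1252, 1037, 969 and 1312 for P.NP and 1180.3, 954, 1226, 1146 and 959 for P. All strains overlapped, and NP replicate 2 was the highest array. The means were 1375 ± 196 for NP, 1171 ± 128 for NP.P, 1144 ± 143 for P.NP and 1093 ± 128 for P (SD, n = 5). P minus NP was -0.33 (SE 0.11, 95% interval -0.56 to -0.090, limma adjusted p = 0.136). The background difference was -0.18 (95% interval -0.35 to -0.014, adjusted p = 0.134), and the F test gave an adjusted p = 0.181. Without NP replicate 3, the lowest NP array, whose removal raises the NP mean, the F test passed (adjusted p = 0.0930). The F test passed in no other fit with 1 array left out. Without P replicate 2, P minus NP was -0.28. P minus NP passed when probe sets under the 60th percentile were left out. The second probe set (1396614_at) gave a P minus NP of -0.20 (95% interval -0.54 to 0.14, adjusted p = 0.583), and the signals of both Sfrp2 probe sets correlated at r = 0.64 over the 20 arrays.

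Sfrp1, another inhibitor of the same family, did not differ by more than the spread between arrays. Its tested probe set (1371861_at) ran from 1126 to 1271 for NP, 989 to 1617 for NP.P, 1218 to 1745 for P.NP and 1112 to 1366 for P arrays, with an F test adjusted p = 0.488. The NP.P arrays fell into 989 and 1026 on one side and 1313, 1593 and 1617 on the other. The other Sfrp1 probe sets (1382878_at and 1383266_at) were too low to test, with signals from 31.7 to 291 and from 45.0 to 189. At 1371861_at, P minus NP was 0.093 (95% interval -0.18 to 0.37), and P.NP minus P was 0.17 (95% interval -0.11 to 0.44).

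Frzb, the secreted frizzled-related protein first found in cartilage, varied more between arrays than any other tested member. Its brighter probe set (1373615_at) gave 832, 979, 1144, 1447 and 1358 in NP arrays and 946, 1152, 1036, 1202 and 1305 in NP.P arrays. It gave 1391, 764, 1307, 1152 and 1218 in P.NP arrays and 1090.3, 549, 1805, 1272 and 1408 in P arrays. The P rats held both the lowest and the highest array, and all strains overlapped. The residual SD within strains was 0.41 on the log2 scale, against 0.14 to 0.29 for the probe sets of the other genes. Without P replicate 2 it was 0.30, against 0.12 to 0.28 for the others, so much of that gap came from 1 array. The F test gave an adjusted p of 1.0 for this probe set and 0.935 for the second (1375961_at), and both correlated at r = 0.90 over the 20 arrays. P minus NP was 0.016 with a 95% interval from -0.49 to 0.53, and NP.P minus NP was -0.0096 with an interval from -0.52 to 0.50.

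The lowest Frzb arrays of the P and P.NP strains were also the lowest of those strains in cartilage genes, whereas the lowest NP and NP.P arrays (832 and 946) were not. All 14 cartilage markers with a named probe set, such as Col2a1, were above the low-signal limit, and Matn3 and Sox9 had no named probe set. Their mean centred log2 signal was -1.64 in P replicate 2, -0.64 in NP replicate 2 and -0.42 in P.NP replicate 2, while the other 17 arrays lay between -0.15 and 0.45. Their summed signal ran from 150551 to 227558 for NP, 174681 to 222716 for NP.P, 153803 to 206014 for P.NP and 80337 to 229241 for P arrays. With the cartilage score as a covariate, the Frzb residual SD was 0.18, and the slope was 0.76 log2 units of Frzb per unit of score. P minus NP was then 0.15, and it was 0.28 when P replicate 2 was left out. The 5 genes whose log2 signals were most like Frzb over the 20 arrays were Scrg1, Mia, Col10a1, S100b and Clec3a, with r from 0.86 to 0.87, and from 0.76 to 0.82 without P replicate 2. These correlations describe arrays that share strain and tissue makeup.

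Dkk3, a Dickkopf family member that is not taken here as an inhibitor at the co-receptors, lay between 2020.5 and 3019.9 on all arrays at its tested probe set (1370328_at). Means were 2494 ± 405 for NP, 2461 ± 229 for NP.P, 2491.5 ± 252 for P.NP and 2625 ± 345 for P (SD, n = 5), with an F test adjusted p = 0.916. The remaining Dkk3 probe sets, 1397754_at, 1394655_at and 1377468_at, were too low to test, with mean signals of 123, 15.3 and 6.77. P minus NP at the tested one was 0.079 (95% interval -0.16 to 0.32) and P.NP minus P was -0.071 (95% interval -0.31 to 0.17).

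Sost, which encodes sclerostin, was low at both probe sets in every array. The first (1391165_at) ran from 12.2 to 68.5 for NP, 8.08 to 88.7 for NP.P, 5.43 to 103 for P.NP and 13.3 to 103 for P arrays. The second (1368969_at) ran from 12.8 to 76.6 for NP, 27.6 to 162 for NP.P, 9.56 to 57.4 for P.NP and 5.01 to 87.6 for P arrays. No value reached the low-signal limit, and the arrays of a strain differed by several fold, so no strain difference could be read. Of 5 osteocyte markers, 4 were above the limit (Dmp1, Phex, Mepe and Pdpn), and Fgf23 was low. Without the filter, neither Sost probe set passed any test, with adjusted p from 0.181 upward.

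The co-receptors Lrp5 and Lrp6 were not called in any contrast. At its brighter probe set (1380242_at) Lrp5 averaged 528 ± 63.8 for NP, 585 ± 127 for NP.P, 547 ± 99.1 for P.NP and 513 ± 126 for P (SD, n = 5; F test adjusted p = 0.812). The other Lrp5 probe set (1380241_a_at) gave 410.3, 358, 305, 326 and 301 in NP arrays and 574, 458, 563, 384 and 279.5 in NP.P arrays. The NP.P values thus held the highest and the lowest of these 10 arrays. NP.P minus NP was 0.37 at this probe set (95% interval 0.0104 to 0.73, limma adjusted p = 0.363) but 0.13 at the brighter one (95% interval -0.21 to 0.47). Without NP.P replicate 5, the lowest of its strain, the F test of 1380241_a_at passed with an adjusted p = 0.0809, against 0.389 with all arrays. Removing that array raises the NP.P mean, and the F test passed in no other fit with 1 array left out. The signals of the Lrp5 probe sets did not rise and fall together over the 20 arrays (r = -0.25). Lrp6, at its single probe set (1376725_at), averaged 479 ± 95.2 for NP, 492 ± 82.1 for NP.P, 479 ± 69.2 for P.NP and 514 ± 67.4 for P (SD, n = 5; F test adjusted p = 0.912). P minus NP was 0.11 for Lrp6 (95% interval -0.18 to 0.41). Lrp6 is on chromosome 4, but in the gene order of GRCr8 it lies beyond the interval from Arf5 to Ppp4r2, the outermost genes that the study listed in the locus.

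Ctnnb1, the gene of beta-catenin, had 3 tested probe sets, and none was called. At the brightest (1373067_at) the means were 31059 ± 5435 for NP, 35278 ± 1480.2 for NP.P, 34038 ± 1863 for P.NP and 33160.4 ± 4787 for P (SD, n = 5; F test adjusted p = 0.574). NP replicate 1 (22129) and P replicate 2 (25769) were the lowest arrays. NP.P minus NP was 0.20 (95% interval -0.040 to 0.45), and P minus NP was 0.10 (95% interval -0.14 to 0.34), or 0.19 without P replicate 2. This probe set correlated at r = 0.78 with 1373470_at and at r = 0.21 with 1369733_at, or 0.75 and -0.10 without P replicate 2. At 1373470_at, P minus NP was 0.11 and NP.P minus NP was 0.17. Both had the opposite sign at 1369733_at, with -0.12 (95% interval -0.31 to 0.080) and -0.048 (95% interval -0.25 to 0.15). At 1369733_at the 5 NP.P arrays lay between 1365 and 1394, while the NP arrays ran from 1175 to 1692. A further probe set (1375284_at) was too low to test, with signals from 4.28 to 93.0. Over the 20 arrays, the gene most like Ctnnb1 was Spp1, the osteopontin gene (r = 0.87, and 0.83 without P replicate 2).

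**Figure D4:**
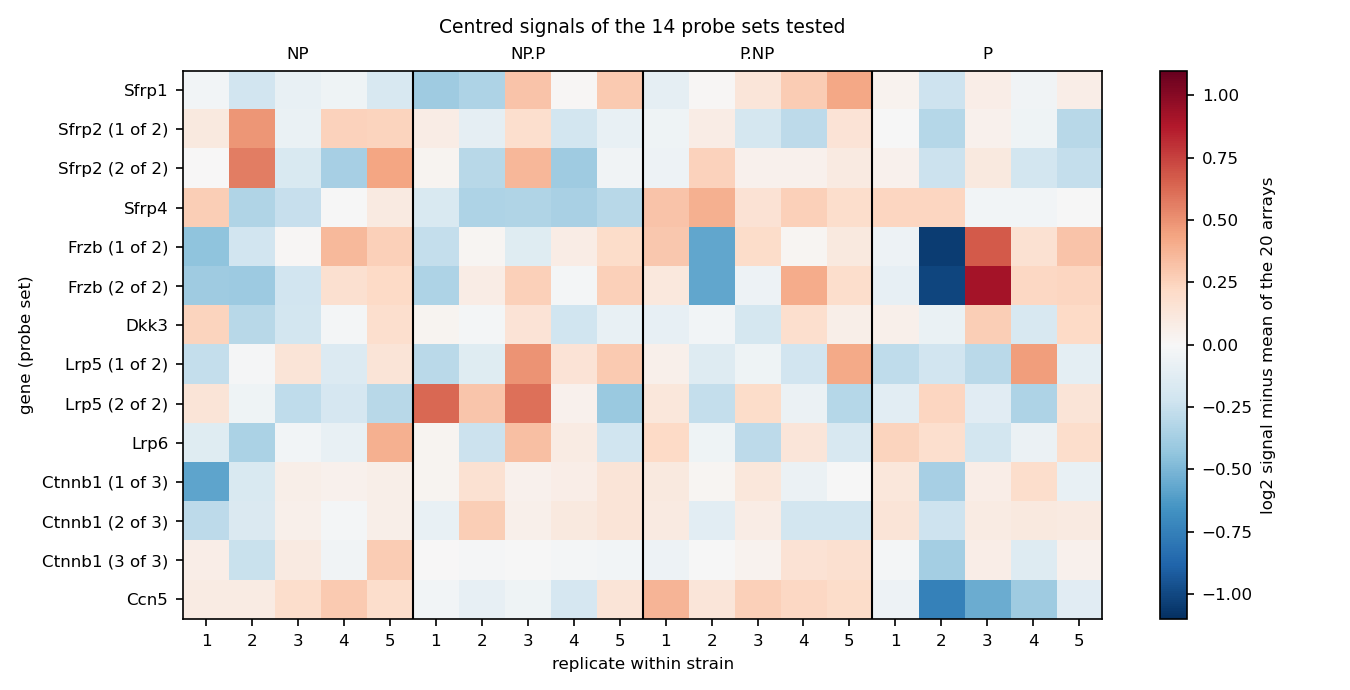
Log2 signal minus the mean of the 20 arrays (colour scale) for the 14 tested probe sets (rows) in each array (columns, by strain and replicate). Ccn5 is blue in the P arrays and red in the NP and P.NP arrays, Sfrp4 is red in P.NP and blue in NP.P, and both Frzb rows are dark blue in P replicate 2 and dark red in P replicate 3.

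The colour map of single arrays shows the same pattern side by side for probe sets of 1 gene. The Frzb rows followed each other from array to array, whereas those of Lrp5 did not.

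Ccn5, a secreted matricellular protein of the CCN family that is known as a Wnt-induced gene, gave the clearest differences among these genes. Its signal (1369484_at) was 537, 537, 574, 616 and 574 in NP arrays and 651, 551, 605, 591 and 579 in P.NP arrays. It was 494, 473, 488, 443 and 555 in NP.P arrays and 484, 301, 346, 384 and 462 in P arrays. All P arrays lay below all NP and all P.NP arrays. Strain means were 595 ± 36.9 (SD, n = 5) in P.NP, 568 ± 32.7 in NP, 491 ± 41.1 in NP.P and 395 ± 77.0 in P. In that order each strain overlapped the next. The spread was largest in P rats.

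Ccn5 was lower in P than in NP rats by a log2 difference of -0.54 (SE 0.11, 95% interval -0.76 to -0.32, limma adjusted p = 0.00409), or 0.686-fold. It was higher in P.NP rats, with the NP segment, than in P rats by 0.61 (SE 0.11, 95% interval 0.39 to 0.83, adjusted p = 0.0228), or 1.53-fold, and ranked 12 of 18625 by p. The segment contrast was -0.41 (SE 0.075, 95% interval -0.57 to -0.25, adjusted p = 0.0177), ranked 29 of 18625, so that Ccn5 was lower in strains with the P segment. NP.P minus NP had the same sign but was not called (-0.21, 95% interval -0.43 to 0.0093, adjusted p = 0.405). The background difference was -0.13 (95% interval -0.29 to 0.026, adjusted p = 0.255). The interaction was -0.40 (95% interval -0.71 to -0.085, adjusted p = 0.369), and it did not pass the test. Ccn5 is on chromosome 3 in GRCr8, outside the exchanged locus.

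With marker scores as covariates, the Ccn5 differences kept their sign and each passed. With the cartilage score as a covariate they were -0.51 for P minus NP, 0.56 for P.NP minus P and -0.40 for the segment. With the periosteum score, they were -0.44, 0.67 and -0.48. Without P replicate 2, the array with the lowest Ccn5 signal, P minus NP was -0.45 (adjusted p = 0.00985) and P.NP minus P was 0.52 (adjusted p = 0.0489). The call for P.NP minus P was lost when the 2 strains were fitted alone (adjusted p = 0.211), a fit that called 11 of all probe sets, and in the methods' unequal-variance test (adjusted p = 0.587), which called 0. The call for P minus NP was lost in the unequal-variance test (adjusted p = 0.217), which called 411 of all probe sets. Of the 5 genes most like Ccn5 over the 20 arrays, Exoc7 came first (r = 0.79, and 0.72 without P replicate 2). Mmp12 (r = 0.76, and 0.59 without that array), Polr3e (0.74 and 0.66), Ttf1 (0.73 and 0.69) and Ap1s1 (0.73 and 0.55) followed. All 5 likenesses were thus weaker without P replicate 2.

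Of 106 other genes of the Wnt pathway, from ligands to nuclear partners and targets, 81 had a named probe set and 60 were tested at their brightest one. The F test called 8 of the 60, beside 18.2% of all probe sets. P minus NP called 2, both lower, beside 5.36%. The background contrast called 11, with 5 higher and 6 lower on the P background, beside 22.5% of all probe sets, of which 11.1% were higher and 11.3% lower. The median background difference of the 60 genes was 0.11, against 0.017 over all probe sets. NP.P minus NP, P.NP minus P, the segment and the interaction each gave 0 calls with limma, with 7, 4, 7 and 6 of the 60 genes at an unadjusted p under 0.05. Unadjusted counts, here and by group below, also stand without the share over all probe sets and are not read as an excess.

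**Figure D5:**
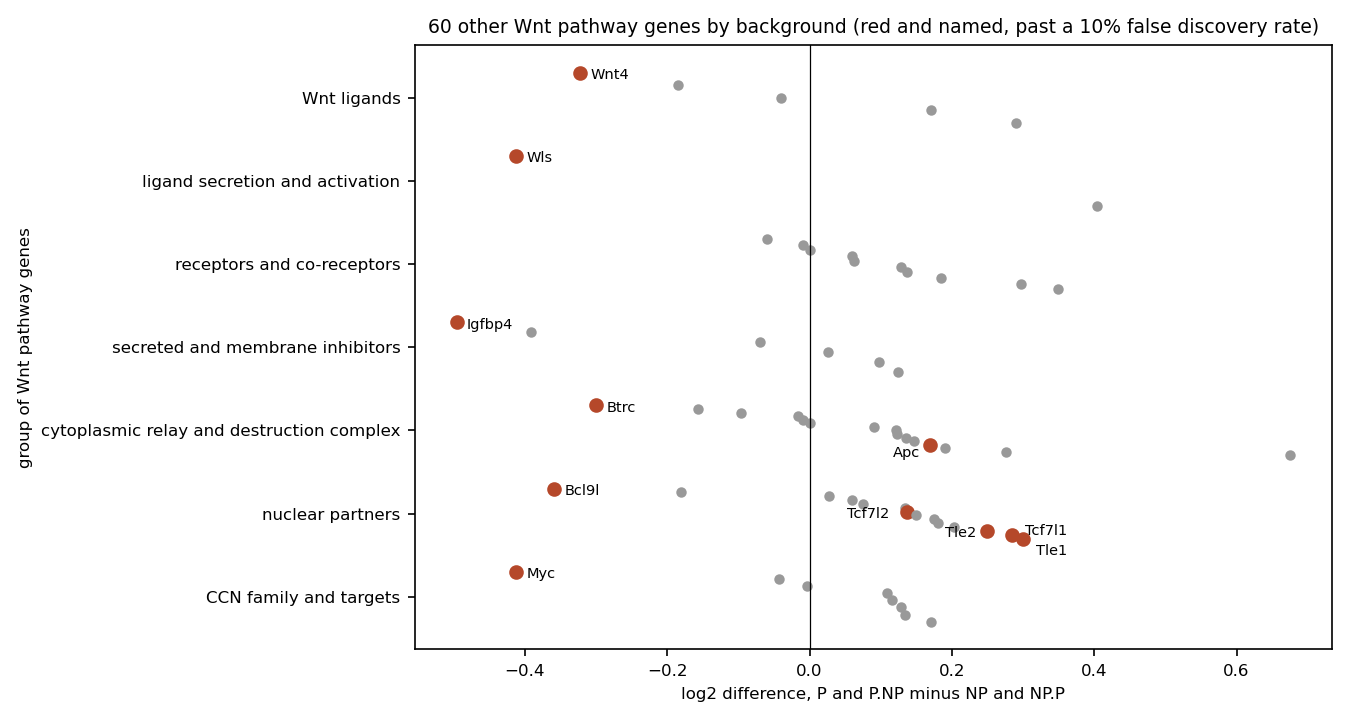
Log2 difference of the background contrast (P and P.NP minus NP and NP.P, x axis) for the 60 other Wnt pathway genes tested, by group of genes (y axis, spread within a group for legibility); red, named points passed the 10% false discovery rate. Igfbp4, Myc and Wls lie furthest left among the named genes, and 4 of the 5 genes to the right of 0 that passed are nuclear partners.

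In the plot of pathway genes by background, Igfbp4, Myc and Wls lay lowest among the called genes. Wls, which carries Wnt ligands to the cell surface for secretion, averaged 1111 ± 71.3 for NP, 999.8 ± 92.6 for NP.P, 756 ± 58.5 for P.NP and 830.1 ± 79.1 for P (SD, n = 5). All NP arrays (1041 to 1213) lay above all P.NP and P arrays (706 to 948), while the NP.P arrays began at 886. The background difference of Wls was -0.41 (SE 0.058, adjusted p = 5.46e-05), and P minus NP was -0.42 (adjusted p = 0.00373). Igfbp4, an insulin-like growth factor binding protein also reported to inhibit Wnt signalling, averaged 1700.1 ± 203 for NP, 1722 ± 145 for NP.P, 1264 ± 135 for P.NP and 1165 ± 125 for P (SD, n = 5). Its P arrays (967 to 1313) lay below all NP and NP.P arrays (1388 to 1891), while the P.NP arrays reached up to 1437, above the lowest NP array. Its background difference was -0.50 (SE 0.071, adjusted p = 7.46e-05), and P minus NP was -0.54 (adjusted p = 0.00259).

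The counts by group stand beside 22.5% of all probe sets called by background. Of 5 Wnt ligands, 1 was called, Wnt4, which was lower (-0.32, adjusted p = 0.0291). Of 10 receptors and co-receptors, 0 were called with limma, and 2 had an unadjusted p under 0.05. In the cytoplasmic relay, 2 of 15 genes were called: Btrc, which targets beta-catenin for degradation, was lower (-0.30, adjusted p = 3.42e-04), and Apc, of the destruction complex, was higher (0.17, adjusted p = 0.0825). Of 14 nuclear partners, 5 were called, 4 higher and 1 lower, beside 11.1% of all probe sets higher and 11.3% lower. The Groucho-type co-repressors Tle1 (0.30, adjusted p = 0.0622) and Tle2 (0.25, adjusted p = 0.0779) and the Tcf factors Tcf7l1 (0.28, adjusted p = 0.0821) and Tcf7l2 (0.14, adjusted p = 0.0948) were higher on the P background. The beta-catenin cofactor gene Bcl9l was lower (-0.36, adjusted p = 0.0340). Of 8 CCN family and target genes, Myc was lower (-0.41, adjusted p = 0.0106), and Ccnd1, the cyclin D1 gene, passed only the F test (adjusted p = 0.0766). Tcf7l1 lies between Arf5 and Ppp4r2 on chromosome 4, and its segment difference was 0.062 (SE 0.11, adjusted p = 0.877). The erythroid and B lymphoid genes given above moved with the same contrast, and their part in these pathway differences was not tested.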

How the data were processed

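The 20 arrays were grouped by the strain in their labels, 5 each of NP, NP.P, P.NP and P. Per the methods, the authors read the array images with GCOS 1.2. The deposited values are MAS5 intensities on a linear scale, whereas the tests of the study used robust multichip average values, which were not used here. Probe sets were named through the platform annotation, with symbols brought up to date by gene identifier, and only where it gives 1 symbol.

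Signals under 1 were set to 1 (190 values, 0 of them of the 10 genes) and taken to log2. Probe sets with a mean log2 signal at or above the 40th percentile of the 31042 that were not controls were tested, 18625 in all. A model with 4 strain means was fitted in limma 3.58.1 (R 4.3.3), which left 16 residual degrees of freedom and added 2.78 from the prior, p-values were adjusted by Benjamini-Hochberg over all 18625, and intervals are 95% intervals. Folds are 2 to the power of the log2 difference. For each pathway gene, only the probe set of highest mean signal was used. A marker score is the mean of the centred log2 signals of a list's genes above the limit. Likeness is Pearson's r of log2 signals over the 20 arrays, 1 probe set per gene. The script was tested on simulated data. Figures were drawn with matplotlib 3.10.9 in Python 3.11.15.

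The members, the lists of pathway and marker genes, the named genes and the tests were chosen with earlier results of these data known. Named were all members, up to 12 pathway genes past the threshold in any test, by the smallest F test p, and the 5 genes most like each member, of which those of Frzb, Ccn5 and Sfrp4 and the first for Ctnnb1 are given. The lists other than the periosteum, erythroid and B lymphoid ones stood as follows in the background contrast: osteoclast 1 of 5 genes higher, endothelial 2 of 7 higher, skeletal muscle 1 of 11 higher, osteoblast 1 of 8 higher, osteocyte 2 of 4 higher, adipocyte 2 of 7 higher and 3 lower, and cartilage 0 of 14 in either direction. Over all probe sets, 11.1% were higher and 11.3% lower. Alternatives were no filter, a 60th percentile filter, quantile normalization, an offset of 21.7 before the log, a mean-variance trend, a false discovery rate of 5%, the cartilage score as a covariate, the replicate number as a block, fits of 2 strains alone, the unequal-variance test of the methods, every probe set of the pathway genes, and each array left out in turn. Scan and hybridization batches were not given in the sources used here.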

Additional observations from a re-analysis of the deposited data

Results flagged for a closer look

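In 56 groups of 5 arrays, 1 per tested probe set and strain, the highest or lowest array was checked for a gap of more than 0.710 of the range, a limit that chance passes in about 1 of 20 groups, and 3 groups passed it. For Sfrp4 (1368394_at), NP.P replicate 1 stood at 2460.5 while the other NP.P arrays lay between 2157 and 2228, a gap of 0.755 of the range. For Lrp5 (1380242_at), P replicate 4 stood at 734 against 434 to 495 in the other P arrays, a gap of 0.752. For Ctnnb1 (1373470_at), P replicate 2 stood at 22339 against 27759.7 to 28748, a gap of 0.861.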

How the results depend on the processing

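The called differences of Sfrp4 (background) and Ccn5 (P minus NP, P.NP minus P and segment) kept their sign under all alternatives run; the differences that were not called were not followed through them. Of 69 counts of called members under alternatives other than leaving out an array, 58 stayed within 1.5 times the count reported. The reported counts were only 0, 1 or 2, and the 58 include counts that stayed at 0. They also include 1 that kept its size with another member, so this tally alone says little about stability. The background count was 2 with no filter (Sfrp1 1383266_at added), where 3322 of all probe sets were called. It was 2 with the 60th percentile filter (3943 of all called), 2 with quantile normalization (4098) and 2 with the periosteum score as a covariate (3087). Sfrp2 1390119_at was added in each of these but the fit with no filter. With the 60th percentile filter, which leaves Ccn5 untested, the F test count was 1, the P.NP minus P count 0 and the segment count 0, while the P minus NP count was 1 because Sfrp2 1390119_at passed in place of Ccn5. The P minus NP count was 2 with the periosteum score (Sfrp2 added, 1027 of all probe sets called) and 0 in the unequal-variance test (411 of all called). The P.NP minus P count was 0 with the 2 strains alone, where 11 of all probe sets were called, and 0 in the unequal-variance test, where 0 were. With each array left out, the F test count ranged from 2 to 3, the P minus NP and background counts from 1 to 2, and the other counts did not move; Sfrp2 was added without NP replicate 3 (P minus NP and background) and without P.NP replicate 5 (background). Over the same fits, the adjusted p of Ccn5 ranged from 0.000938 to 0.0155 for P minus NP, 0.00725 to 0.0785 for P.NP minus P and 0.00685 to 0.0465 for the segment, and that of Sfrp4 for the background from 0.000523 to 0.00585. Of 30 same-number pairs of arrays from different strains, 5 had deviations from their strain means correlated above 0.1. The median r was 0.023 for the same number, with a highest value of 0.33, against a median of -0.0039 for other numbers. Among arrays of other strains, 9 arrays matched best with 1 of their own number. The lowest cartilage scores were those of P, NP and P.NP replicate 2. Whether replicate numbers mark a shared step was not tested. With the replicate block, the F test count was 2 and the P minus NP, P.NP minus P, background and segment counts 1 each, as without it. Of the pathway counts, the F test count was 3 instead of 8 with no filter and at a 5% false discovery rate, where 2375 and 2279 of all probe sets were called. The background count was 6 instead of 11 in both (3322 and 3022 of all called) and 7 with quantile normalization (4098 of all called). It was 16 with every probe set, where P.NP minus P gave 1 instead of 0 (Btrc). The P minus NP count of pathway genes was 4 instead of 2 with the periosteum score and with every probe set. NP.P minus NP gave 1, 2 and 1 pathway calls instead of 0 with the 60th percentile filter, the cartilage score and the periosteum score. In these fits 615, 582 and 761 of all probe sets were called. The segment gave 1 with the 60th percentile filter, the periosteum score and every probe set. The cause of these shifts was not tested, other than the 60th percentile filter, which removes probe sets. Low signals limit what can be said of Sost and of the other probe sets under the limit.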

Other observations

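Probe sets of the same pathway gene did not always give the same call, as values outside the reading at the brightest probe set show, chosen here after they were seen. At its second probe set (1398415_at), Btrc was lower in P.NP rats than in the P strain, with a log2 difference of -0.53 (SE 0.086, limma adjusted p = 0.0154), and its segment difference was 0.30 (adjusted p = 0.0362). At the brighter Btrc probe set, P.NP minus P was -0.050 (adjusted p = 0.951). Lef1, a nuclear partner of beta-catenin, was lower in P than in NP rats at 1370138_at (-0.78, adjusted p = 0.0261) and lower on the P background (-0.66, adjusted p = 0.00234), while at its brightest probe set P minus NP was -0.10 (adjusted p = 0.749). Dact1, an intracellular Wnt modulator, was higher on the P background at 1392550_at (1.19, SE 0.37, adjusted p = 0.0359). At its brightest probe set it was not called by background, and the F test gave an adjusted p = 0.697.

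The 5 genes most like Sfrp4 over the 20 arrays were Mmgt2, Washc2c, Camk2d, Ndnf and Mdfic, with r between 0.89 and 0.90.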
